A study of Mus musculus with 6 samples.

Results

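Described here are 35 transcription factor genes of the mouse: the genes of the Hoxb, Hoxc and Hoxd clusters, Hoxa11 and Hoxa13 of the Hoxa cluster, and the cofactor genes Pbx2, Pbx3, Meis1, Meis2 and Meis3. They were chosen by name and make up 0.149% of the 23420 genes in the count table. All were found in it, and 21 of the 35 were abundant enough to test. RNA was sequenced from endothelial cells of whole Csf1r-iCre;RosatdTomato embryos at embryonic day 12.5, sorted as positive for the endothelial surface protein PECAM1 and negative for CD45, CD11b and KIT, which mark blood cells and their progenitors. The tdTom+ group (3 libraries) held the cells that carried the red reporter protein tdTomato, and the tdTom- group (3 libraries) held the cells without it. Both groups carried the Csf1r-iCre transgene, a Cre recombinase under the promoter of the myeloid receptor gene Csf1r, and the Rosa tdTomato reporter allele, so that tdTomato marks cells in which the Cre had acted at some earlier time, whether or not Csf1r was still expressed. The cells came from 3 embryos, and the labels do not say which library came from which embryo, so that p-values measure the spread between these libraries.

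Hox genes lie in 4 clusters and encode homeodomain proteins that give cells a position along the head-to-tail axis. Within a cluster, genes of low number (anterior paralogue groups) are expressed further towards the head and genes of high number (posterior groups) further towards the tail, and endothelial cells keep such a regional code. PBX and MEIS proteins are homeodomain proteins of the TALE class that bind DNA together with HOX proteins, and MEIS proteins also bring PBX proteins into the nucleus. The comparison asked whether these genes differ between endothelial cells with and without the reporter.

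Promoter bases of Hoxd8 and Hoxb1 are shown as examples of a high and a low level. Hoxd8 was the most abundant Hox gene described here per length of transcript in tdTom+ cells. Hoxb1 had no count in tdTom+ libraries and 2 counts in tdTom- libraries. For Hoxd8 these are the 250 bases before the RefSeq start. For Hoxb1 they are the first 244 of those 250 bases, cut where the GENCODE gene begins. Hoxb13, Hoxc11 and Hoxc13 also had no count in tdTom+ libraries, and Hoxb1 was chosen among them after its values were seen. The sequences are RefSeq's on GRCm38.p6, the mm10 assembly, plus strand, with Hoxd8 at chr2:74704365-74704614 and Hoxb1 at chr11:96365508-96365751. Capitals mark matches, on either strand, to TGATNNAT, a binding motif of HOX and PBX proteins together, and to TGTCA, a binding motif of MEIS proteins.
Hoxd8: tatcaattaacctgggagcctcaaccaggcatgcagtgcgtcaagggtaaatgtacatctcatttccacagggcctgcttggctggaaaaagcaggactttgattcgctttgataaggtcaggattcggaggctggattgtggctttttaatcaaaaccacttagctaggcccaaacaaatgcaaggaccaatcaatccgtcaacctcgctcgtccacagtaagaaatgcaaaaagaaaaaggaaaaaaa
Hoxb1: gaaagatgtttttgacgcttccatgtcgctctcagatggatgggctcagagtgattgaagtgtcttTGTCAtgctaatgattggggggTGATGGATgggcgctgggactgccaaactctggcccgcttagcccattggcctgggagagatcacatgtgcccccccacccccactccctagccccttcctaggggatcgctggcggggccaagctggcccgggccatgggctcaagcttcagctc
The Hoxb1 window held 1 match to each motif, and the Hoxd8 window held none. The Hoxb1 matches began 162 and 184 bases before the RefSeq start, which lies past the end of the printed bases. Of 32851 promoters in RefSeq's table, 2524 (7.68%) held TGATNNAT and 13124 (40%) held TGTCA within 250 bases before the start. Of the 20 promoters listed there for 19 of the genes described here, 3 held TGATNNAT and 7 held TGTCA.

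None of the 35 genes passed the threshold for a difference between tdTom+ and tdTom- cells. Of the 21 tested, 0 were called higher and 0 lower in tdTom+ cells by the edgeR quasi-likelihood test (p adjusted by Benjamini-Hochberg over 13142 genes, threshold 0.05). Over all tested genes 1.58% were called, 0.769% as higher and 0.814% as lower. DESeq2 also called 0. An unadjusted p under 0.05 was reached by 2 of the 21, Hoxb7 and Meis3, both lower in tdTom+ cells. That is 9.52% against 10.7% of all tested genes, of which 4.76% were higher and 5.94% lower. The libraries of the groups did not overlap in 4 of the 21, or 19%, against 17.2% of all tested genes (7.88% higher and 9.35% lower). These 4 were Hoxb7, Hoxb9, Hoxc10 and Meis3, each lower in tdTom+ cells. In tdTom+ replicate 2, Hoxc10 had 0 counts and Meis3 had 1, too few for the tdTom+ libraries alone to pass the filter on low counts. Both genes thus entered the test through the tdTom- group, where they were higher, and their lack of overlap is read with that limit. The median log2 fold change was -0.17 over the 21 genes and -0.00026 over all tested genes. The SE of the log2 fold change was smallest for Meis2, Pbx3, Pbx2 and Hoxd8, from 0.16 to 0.19. The plot of levels by library shows Hoxc5, Hoxc10 and Meis3 widely spread among tdTom+ libraries. Their coefficients of variation (SD over mean) were 128%, 102% and 87.6% there, against 18.2%, 6.91% and 34.8% in tdTom- libraries.

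**Figure D1:**
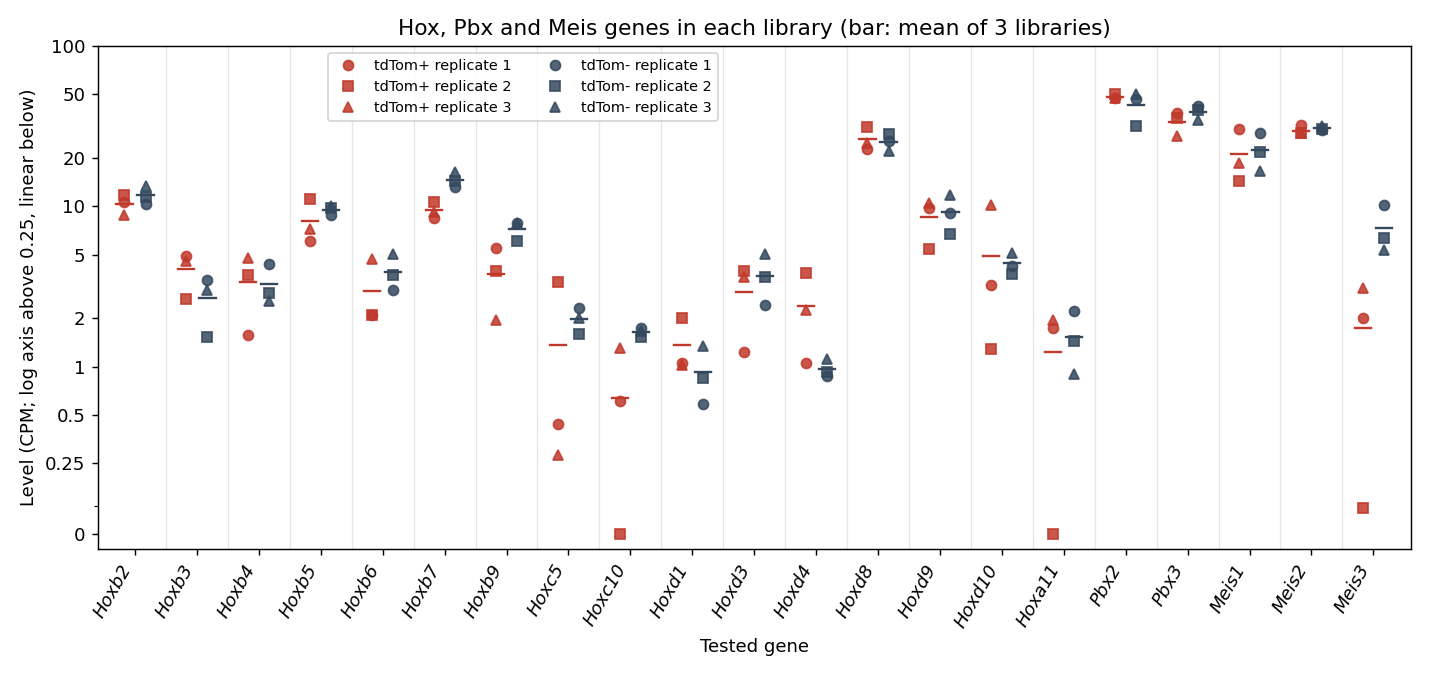
CPM (counts scaled to a common library size) of the 21 tested genes in each library, on an axis that is logarithmic above 0.25 and linear below it; each symbol is 1 library, red for tdTom+ and dark blue for tdTom-, and each bar is the mean of 3 libraries. The groups overlap for 17 of the 21 genes; tdTom+ replicate 2 is at 0 for Hoxc10 and Hoxa11.

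The change was bounded more tightly for some genes than for others. For 8 of the 21 genes the 95% interval of the log2 fold change lay within 1 unit of 0 on either side, that is within a 2-fold change. These were Hoxb2, Hoxb5, Hoxd8, Hoxd9, Pbx2, Pbx3, Meis1 and Meis2. For the other 13 the interval reached past 1 unit, so that a 2-fold difference was not bounded. Hoxb7 was among these 13 because its estimate lay further from 0. Its SE, 0.25, was below those of Hoxb2 and Hoxb5, 0.27 and 0.32.

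**Figure D2:**
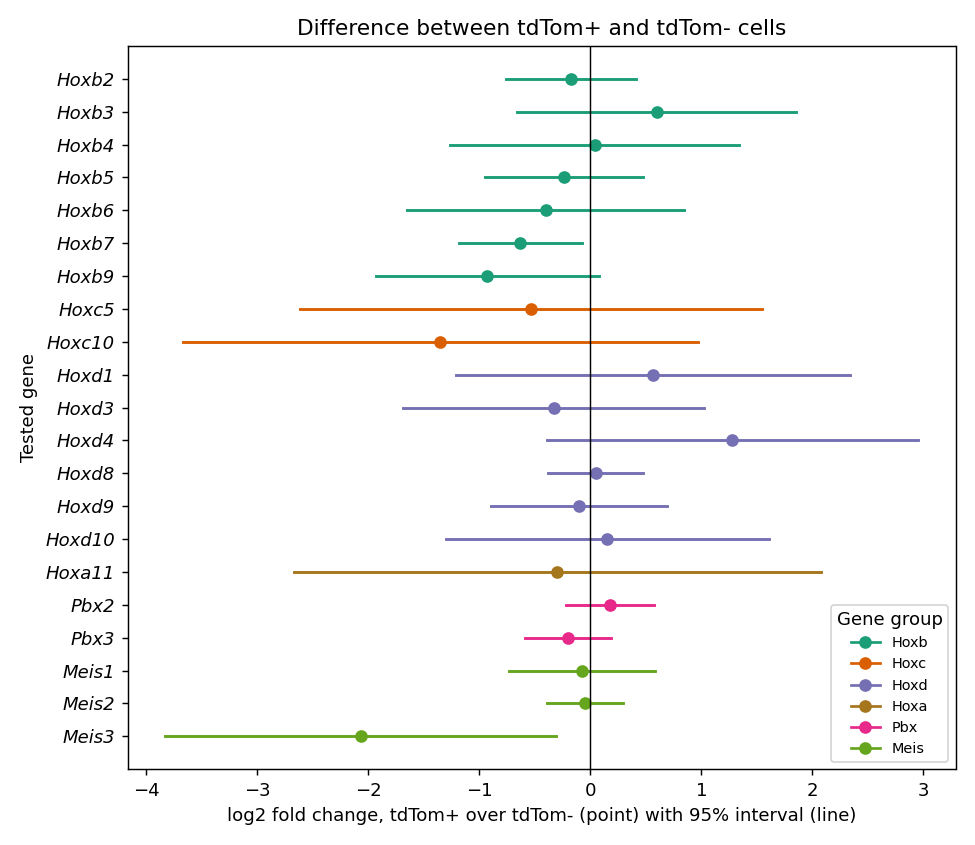
Log2 fold change of each tested gene, tdTom+ over tdTom- (points), with its 95% interval from the edgeR fit (lines), coloured by gene group. The intervals of Hoxb7 and Meis3 lie below 0 before adjustment, and those of Hoxd8 and Meis2 lie within 0.5 of 0.

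CPM are counts scaled to a library of fixed size, and levels of different genes are compared as CPM per kilobase of exon, since longer transcripts yield more reads. Pbx2 was the most abundant of the 35 genes, at 13.2 ± 0.480 CPM per kb in tdTom+ and 11.7 ± 2.696 CPM per kb in tdTom- cells (SD, n = 3). Hoxd8 followed in tdTom+ cells at 9.55 ± 1.58 CPM per kb, against 9.23 ± 1.11 CPM per kb in tdTom- cells. Hoxb7 was at 6.14 ± 0.725 CPM per kb in tdTom+ and 9.51 ± 0.996 CPM per kb in tdTom- cells, so that in tdTom- cells it and Hoxd8 did not differ beyond their spread. Pbx3 and Hoxd9 came next, with 5.51 ± 0.941 and 4.005 ± 1.29 CPM per kb in tdTom+, against 6.35 ± 0.659 and 4.31 ± 1.16 CPM per kb in tdTom- cells. Below them Hoxb2, Hoxb5, Hoxd10, Meis2 and Meis1 lay between 2.01 and 2.97 CPM per kb in tdTom+ cells and between 2.12 and 3.42 CPM per kb in tdTom- cells. No Hoxc gene exceeded 0.443 CPM per kb in tdTom+ or 0.863 CPM per kb in tdTom- cells.

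**Figure D3:**
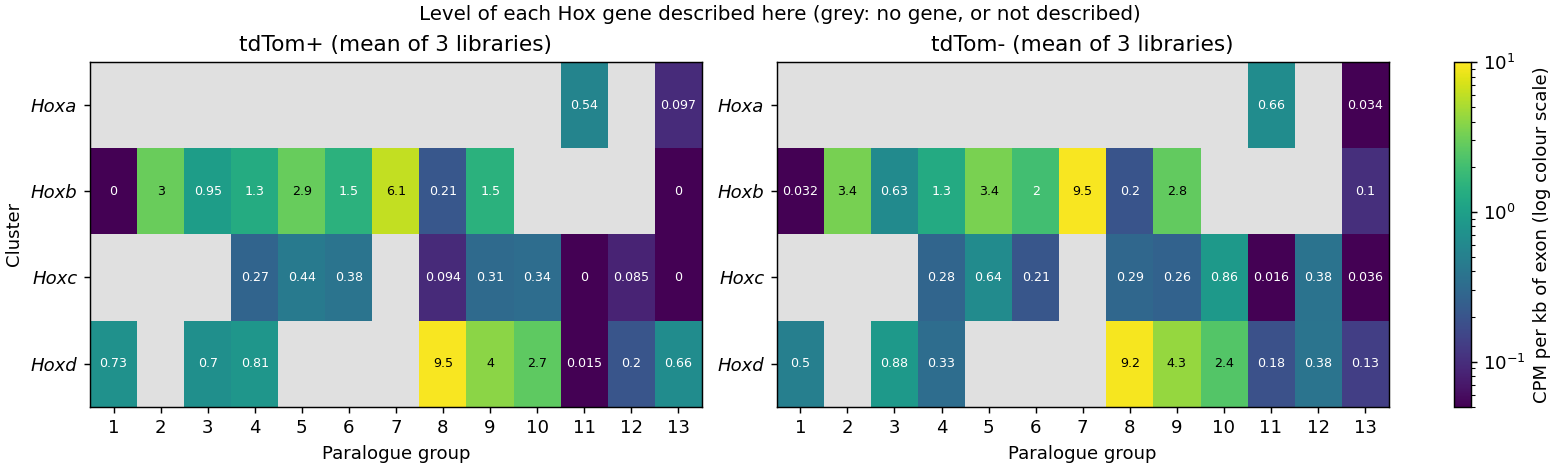
Mean level of each Hox gene described here, in CPM per kb of exon on a logarithmic colour scale, by cluster (rows) and paralogue group (columns), in tdTom+ (left) and tdTom- cells (right). In both groups the highest values are at Hoxd8 and Hoxb7, with 9.55 and 6.14 in tdTom+ against 9.23 and 9.51 in tdTom- cells, and values are low along the whole Hoxc row.

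Of the 10 Hoxb genes, 7 were tested, and Hoxb7 came nearest to a difference. Hoxb7, a central gene of the cluster (chromosome 11, 96286623 to 96290162, mm10), had 97, 117 and 99 counts in the tdTom+ libraries and 137, 171 and 146 counts in the tdTom- libraries 1 to 3. Every tdTom+ library was below every tdTom- library. It averaged 9.48 ± 1.12 CPM with the reporter (tdTom+) and 14.7 ± 1.54 CPM without it (tdTom-; SD, n = 3). The log2 fold change, -0.63 ± 0.25 (SE), missed the threshold (edgeR adjusted p = 0.371; 0.284 to 0.737 over the leave-one-out fits).

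Hoxb9, the posterior neighbour of Hoxb8 in the cluster, had 63, 43 and 21 counts in tdTom+ libraries, against 81, 72 and 70 counts in tdTom- libraries. Here too the groups did not overlap, and the tdTom+ libraries were spread widely while the tdTom- libraries lay close together. The log2 fold change was -0.93 ± 0.45 (SE; by edgeR, adjusted p = 0.523). Hoxb2, which is expressed up to the hindbrain, had 121, 128 and 94 counts in tdTom+ libraries and 106, 136 and 119 in tdTom- libraries, with a log2 fold change whose 95% interval was -0.76 to 0.41. Hoxb5, which marks long-term blood stem cells in the adult mouse, had 69, 121 and 77 counts in tdTom+ libraries, against 91, 115 and 90 counts in tdTom- libraries, and a log2 fold change of -0.24 ± 0.32 (SE). The ranges of Hoxb2 and Hoxb5 overlapped between the groups.

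Hoxb3 was the one Hoxb gene with a positive log2 fold change above 0.5, at 0.60 ± 0.57 (SE; by edgeR, adjusted p = 0.798). It had 56, 29 and 49 counts in tdTom+ libraries and 36, 18 and 27 in tdTom- libraries, and the groups overlapped. Hoxb4, known for expanding blood progenitors when supplied in excess, and Hoxb6 had log2 fold changes of 0.04 and -0.40 and overlapping groups. Reads of Hoxb2, Hoxb3 and Hoxb5 may include reads of the antisense genes Hoxb3os and Hoxb5os, with which they share 953, 2250 and 100 exonic bases, since the library kit does not mark strand.

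The remaining Hoxb genes were too rare to test. Hoxb1, the most anterior, had 0 counts in every tdTom+ library and 0, 0 and 2 counts in tdTom- libraries. Hoxb13, the most posterior, had 0 counts in every tdTom+ library and 7, 0 and 0 counts in tdTom- libraries, all from replicate 1. Hoxb8 had 3, 7 and 8 counts in tdTom+ libraries and 3, 6 and 7 in tdTom- libraries. A floor of 3 counts was 0.263 to 0.280 CPM in tdTom+ and 0.254 to 0.335 CPM in tdTom- libraries, and an expression below this cannot be told from 0.

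The Hoxc cluster was the least expressed, and 2 of its 9 genes were tested. Its summed level was 2.72, 6.22 and 5.32 CPM in tdTom+ libraries, against 7.46, 5.75 and 7.27 CPM in tdTom- libraries. Hoxc10, a posterior gene known from the hindlimb and lumbar region, had 7, 0 and 14 counts in tdTom+ libraries, against 18, 18 and 15 counts in tdTom- libraries. The groups did not overlap, and the log2 fold change was -1.35 ± 1.05 (SE; by edgeR, adjusted p = 0.742). Without tdTom+ replicate 2, in which it had no count, the log2 fold change was -0.77, and without tdTom+ replicate 3 it was -2.37.

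Hoxc5 was widely spread among tdTom+ libraries, with 5, 37 and 3 counts, against 24, 19 and 18 counts in tdTom- libraries. The tdTom+ libraries lay on either side of the tdTom- ones, and the log2 fold change was -0.53 ± 0.94 (SE; by edgeR, adjusted p = 0.914). GENCODE places 166 exonic bases of Hoxc5 within Hoxc10, on the same strand. Hoxc4, Hoxc6, Hoxc8 and Hoxc9 had at most 17 counts in a library, too few to test. Hoxc11, Hoxc12 and Hoxc13, the most posterior genes of the cluster, stayed at or below 3 counts throughout the tdTom+ group and 4 throughout the tdTom- group.

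The Hoxd cluster held the most abundant Hox gene of tdTom+ cells, and 6 of its 9 genes were tested. Hoxd8 (chromosome 2, 74704615 to 74707933, mm10), whose promoter is printed above, had 260, 340 and 265 counts in tdTom+ libraries, against 262, 335 and 199 counts in tdTom- libraries. The groups overlapped almost fully. It averaged 26.2 ± 4.35 CPM with the reporter (tdTom+) and 25.3 ± 3.04 CPM without it (tdTom-; SD, n = 3). The log2 fold change, 0.05 ± 0.19 (SE; by edgeR, adjusted p = 0.967), had a 95% interval of -0.38 to 0.47. Its neighbour Hoxd9 had 112, 59 and 112 counts in tdTom+ libraries and 94, 80 and 105 in tdTom- libraries, with a log2 fold change of -0.10 ± 0.36 (SE).

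Hoxd4 had the most positive log2 fold change of the 21 genes, 1.28 ± 0.76 (SE; by edgeR, adjusted p = 0.632). It had 12, 42 and 24 counts in tdTom+ libraries, against 9, 11 and 10 counts in tdTom- libraries. As CPM the groups overlapped, since the lowest tdTom+ library was at 1.05 CPM and the highest tdTom- library at 1.12 CPM, and without tdTom+ replicate 2 the log2 fold change was 0.75. Hoxd3 and Hoxd4 share 388 exonic bases on the same strand, both share bases with a gene model spanning them, and both overlap the antisense gene Hoxd3os1, so that their counts are uncertain. Hoxd3 had 14, 43 and 39 counts in tdTom+ libraries and 25, 43 and 45 in tdTom- libraries, and Hoxd1, the most anterior gene of the cluster, had 12, 22 and 11 counts in tdTom+ libraries and 6, 10 and 12 in tdTom- libraries. Both overlapped between the groups, with log2 fold changes of -0.33 ± 0.61 and 0.56 ± 0.80 (SE).

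The posterior Hoxd genes, which pattern the limbs and the genital and urinary tract, varied between libraries of the same group. Hoxd10 had 37, 14 and 109 counts in tdTom+ libraries, against 44, 45 and 46 counts in tdTom- libraries. The tdTom- libraries were nearly equal while the tdTom+ libraries ran from below to above them, and the log2 fold change was 0.15 with a 95% interval of -1.30 to 1.61. Its sign was negative without tdTom+ replicate 3 (-0.95) and with a replicate block (-0.28). Hoxd10 and Hoxd11 share 104 and 455 exonic bases with the gene Gm28309 on the same strand. Hoxd13 had 42, 0 and 13 counts in tdTom+ libraries and 7, 1 and 2 in tdTom- libraries. Hoxd11 had 0, 0 and 2 counts in tdTom+ libraries and 9, 16 and 1 in tdTom- libraries, and for both genes the groups overlapped. Hoxd12, which lies between them, had 9, 0 and 8 counts in tdTom+ libraries and 5, 26 and 2 in tdTom- libraries. These 3 genes did not pass the filter on low counts, and without that filter Hoxd13, Hoxd11 and Hoxd12 had edgeR adjusted p = 0.634, 0.513 and 0.865.

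Of the Hoxa cluster, Hoxa11, a gene of limb and reproductive tract patterning, had 20, 0 and 21 counts in tdTom+ libraries, against 23, 17 and 8 counts in tdTom- libraries, with a log2 fold change of -0.30 ± 1.08 (SE; by edgeR, adjusted p = 0.963). It shares 800 exonic bases with its antisense gene, listed in the table as Hoxa11as, which had 5, 8 and 29 counts in tdTom+ libraries and 14, 25 and 25 in tdTom- libraries. Neither differed beyond its spread. Hoxa13 had at most 4 counts in any library.

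Grouped by position along the axis, tdTom+ replicate 2 stood apart in the posterior genes. The 14 posterior genes (groups 9 to 13) summed to 26.5, 11.98 and 28.8 CPM in tdTom+ libraries, against 29.2, 24.7 and 28.8 CPM in tdTom- libraries. Of these 14 genes, 10, 5 and 9 had at least 1 count in tdTom+ libraries, against 13, 12 and 10 in tdTom- libraries. That threshold lies below the floor of 3 counts. The 11 central genes (groups 4 to 8) summed to 43.7, 68.4 and 56.8 CPM in tdTom+ libraries, against 60.4, 63.6 and 62.7 CPM in tdTom- libraries, and tdTom+ replicate 2 was the highest of all 6. The 5 anterior genes (groups 1 to 3) summed to 17.8, 20.3 and 18.0 CPM in tdTom+ and 16.8, 17.5 and 22.9 CPM in tdTom- libraries, and the groups overlapped. Posterior genes thus made up 11.9% of the summed Hox level in tdTom+ replicate 2 and 23.3% to 30.1% in the other 5 libraries. That library also had the fewest genes with at least 1 count over the whole table, 14432, against 14748 to 15300 in the other tdTom+ libraries and 15850 to 16109 in tdTom- libraries; the part of this in the posterior values was not tested.

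**Figure D4:**
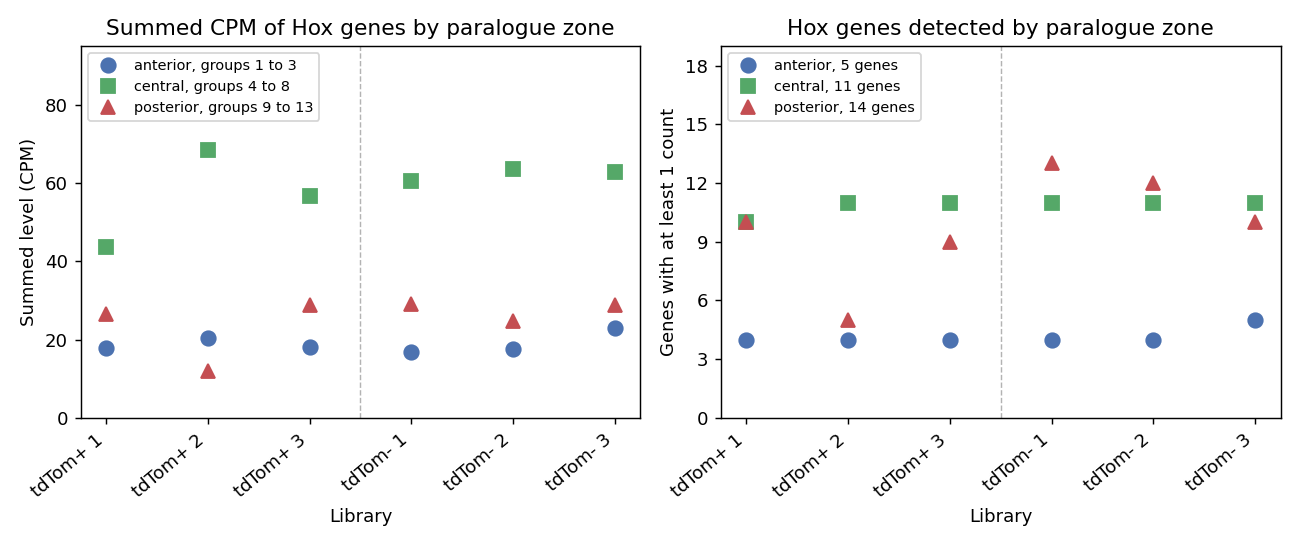
Left, summed CPM of the Hox genes described here in each library by paralogue zone; right, how many of them had at least 1 count. The broken line separates tdTom+ (left) from tdTom- libraries; tdTom+ replicate 2 has the lowest posterior sum, 11.98 CPM, and the highest central sum, 68.4 CPM.

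At 1 count or more, fewer of the 30 Hox genes were detected in every tdTom+ library (24, 20 and 24) than in tdTom- libraries (28, 27 and 26). This separation rests on genes below the floor of 3 counts, which cannot be told from 0. With only genes at or above the floor counted, tdTom- replicate 3 had fewer Hox genes than tdTom+ replicate 1, so the groups overlapped. In tdTom- replicate 3, Hoxb1, Hoxd11, Hoxd12 and Hoxd13 had 2, 1, 2 and 2 counts. Hoxc11 and Hoxc13 had 1 count each in tdTom- replicate 1, and Hoxc13 and Hoxd13 had 2 and 1 in tdTom- replicate 2. In the tdTom+ group, Hoxc8 had 2 and 1 counts in replicates 2 and 3, and Hoxd11 had 2 in replicate 3. The number of all genes detected was likewise lower in each tdTom+ library, as given above. The spread within a group was also larger in tdTom+ cells. The coefficient of variation of CPM was larger in tdTom+ than in tdTom- libraries for 18 of the 21 tested genes, or 85.7%, against 68.8% of all tested genes and 71.3% of the 7146 tested genes in the same range of mean level. Its median over the 21 genes was 41.2% in tdTom+ and 18.2% in tdTom- libraries, against 26.9% and 17.5% over the genes of that range. Pbx2, Hoxb3 and Hoxd1 were the exceptions. With 3 libraries a group these are descriptions, and no test was made of them.

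Of the 5 cofactor genes, 4 had over 100 counts in every library and bounded fold changes, and Meis3 was rarer. Pbx2 (chromosome 17, 34591266 to 34597400, mm10) had 537, 549 and 507 counts in tdTom+ libraries, against 479, 374 and 449 counts in tdTom- libraries. In CPM, tdTom- replicates 1 and 3 lay within or just below the tdTom+ range, and tdTom- replicate 2 was the low one at 31.6 CPM. Pbx2 shares 227 exonic bases with its neighbour Gpsm3 on the same strand. Its log2 fold change was 0.18 ± 0.18 (SE; by edgeR, adjusted p = 0.819), with a 95% interval of -0.22 to 0.57. Pbx3 had 438, 387 and 292 counts in tdTom+ libraries and 435, 472 and 307 in tdTom- libraries, and a log2 fold change of -0.20 ± 0.18 (SE; by edgeR, adjusted p = 0.769). Its groups overlapped.

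Meis1, required in the mouse for blood stem cells and for megakaryocytes, had 347, 158 and 199 counts in tdTom+ libraries and 296, 257 and 148 in tdTom- libraries. Each group spanned about the same range, and the log2 fold change was -0.08 ± 0.30 (SE; by edgeR, adjusted p = 0.965). Meis2 had the narrowest interval of the 21 genes, with means of 29.6 ± 2.03 CPM (tdTom+) and 30.6 ± 0.989 CPM (tdTom-; SD, n = 3). Its log2 fold change, -0.05 ± 0.16 (SE; by edgeR, adjusted p = 0.957), had a 95% interval of -0.39 to 0.30. Meis1 shares 1029 exonic bases with a gene on the same strand, Gm37818, and 896 with an antisense gene, so that its counts are uncertain.

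Meis3 had the largest difference of the 21 genes (chromosome 7, 16175090 to 16186504, mm10). It had 23, 1 and 33 counts in tdTom+ libraries, against 105, 75 and 48 counts in tdTom- libraries. Every tdTom+ library was below every tdTom- library. The means were 1.73 ± 1.52 CPM (tdTom+) and 7.29 ± 2.54 CPM (tdTom-; SD, n = 3). The log2 fold change of -2.07 ± 0.80 (SE) had an unadjusted p of 0.0253 and an edgeR adjusted p = 0.346, which ran from 0.120 with DESeq2 to 0.810 without tdTom- replicate 1. Without tdTom+ replicate 2, which held 1 read of it, the log2 fold change was -1.52, and without tdTom+ replicate 3 it was -2.77. The authors' deposited table gives Meis3 an adjusted p of 0.119 and Hoxb7 one of 0.382.

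Markers of mesenchyme and mural cells were also compared between the groups. In these connective tissue and vessel wall cells Hox and Meis genes are also active. The log2 fold change was negative for 14 and positive for 7 of the 21 tested Hox, Pbx and Meis genes. Over all tested genes 50% were negative. Of 13 tested mesenchyme and mural genes 0 were called, and all 13 had negative log2 fold changes, with a median of -0.97. Their summed level, over 14 genes, was 263, 183 and 687 CPM in tdTom+ libraries, against 1161, 492 and 681 CPM in tdTom- libraries. The groups overlapped, with tdTom+ replicate 3 above tdTom- replicates 2 and 3. All 10 tested genes of limb and urogenital mesenchyme were likewise negative, with 0 called, a median of -0.67 and a sum of 15.9 to 36.1 CPM in tdTom+ and 34.8 to 58.0 CPM in tdTom- libraries. The endothelial markers, 10 of 10 tested and 0 called, summed to 7566 to 8073 CPM in tdTom+ and 7603 to 7852 CPM in tdTom- libraries. The part of mesenchymal RNA in the Hox and Meis values was not tested, and in bulk libraries fewer cells that express a gene and less RNA of it per cell cannot be told apart.

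Among the other genes of the pathway, Mll1 was the one that passed. Mll1 (now Kmt2a) encodes a histone methyltransferase that maintains Hox gene expression. It had 495, 484 and 463 counts in tdTom+ libraries, against 273, 331 and 249 counts in tdTom- libraries. The libraries of each group were close together and far from the other group. Its level rose to 43.6 ± 0.561 CPM in tdTom+ cells, against 27.4 ± 0.849 CPM without the reporter (tdTom-; SD, n = 3). Its log2 fold change was 0.67 ± 0.14 (SE; by edgeR, adjusted p = 0.0486). Leaving out any 1 library ended the call (adjusted p from 0.0735 to 0.255, log2 fold change from 0.65 to 0.68), as did a replicate block (0.0647) and dropping the filter on low counts (0.0534), whereas DESeq2 kept it (0.00655). Of the 13 tested regulators of Hox expression, 1 rose and 0 fell, with a median log2 fold change of -0.18.

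Within this list of regulators, Crabp2 and Cyp26b1 had the next smallest p, and neither was called. Crabp2, a retinoic acid carrier, had 84, 46 and 105 counts in tdTom+ libraries, against 274, 147 and 148 counts in tdTom- libraries. The groups did not overlap, and the log2 fold change of -1.38 ± 0.38 (SE; by edgeR, adjusted p = 0.125) passed with DESeq2 (0.0210) and reached 0.572 without tdTom- replicate 1, the highest over the alternatives. Cyp26b1, which degrades retinoic acid, had 75, 106 and 188 counts in tdTom+ libraries and 327, 193 and 225 in tdTom- libraries, and a log2 fold change of -1.11 ± 0.36 (SE; by edgeR, adjusted p = 0.231). Without tdTom+ replicate 3, the highest of its group, the adjusted p was 0.0488, and it was 0.711 without tdTom- replicate 1.

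Among 8 tested genes of the rest of the Hoxa cluster 0 were called, with a median log2 fold change of -0.15. Hoxa10 and Hoxa7 had log2 fold changes of -1.23 ± 0.39 and -1.12 ± 0.37 (SE; by edgeR, adjusted p = 0.207 and 0.235). For both genes the groups did not overlap. Of 10 tested genes on a list of other TALE homeobox genes, which also holds the PBX-binding protein gene Pbxip1, 0 were called, with a median of -0.22. Pknox2, a TALE gene related to Meis, had a log2 fold change of -1.25 ± 0.48, Irx5 one of -0.91 ± 0.42 and Pbxip1 one of 0.46 ± 0.15 (SE; by edgeR, adjusted p = 0.341, 0.473 and 0.228). Of the non-coding RNA genes of the Hox clusters, 4 of 11 had a row in the table and 1, Hoxa11as, was tested, with 0 called.

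Total counts per library ran from 8919887 to 11767956. Pecam1, the sorting marker, had 8224 to 10052 counts in tdTom+ and 8577 to 10514 counts in tdTom- libraries, and Csf1r had 57 to 81 counts in tdTom+ and 39 to 52 counts in tdTom- libraries. In CPM, Pecam1 was at 768 to 881 in tdTom+ and 889 to 959 in tdTom- libraries. Csf1r was at 5.21 to 7.56 CPM in tdTom+ and 3.97 to 4.40 CPM in tdTom- libraries. Neither overlapped in CPM, as was so for 17.2% of all tested genes, and neither was called (by edgeR, adjusted p = 0.413 and 0.719). Markers of other cell types that differed with the sort were those of liver sinusoidal endothelium, 6 of 7 tested higher in tdTom+ cells, and of megakaryocytes and platelets, 5 of 10 higher. Hepatoblast markers had 0 of 7 called, with all 7 log2 fold changes negative and a median of -1.70, and neural markers 0 of 8 called, with 6 negative and a median of -0.28; negative signs thus also prevailed in lists other than the mesenchymal ones. Of 6 tested haematopoietic markers 1, Gata1, rose.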

How the data were processed

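Per the labels' protocols, RNA of the sorted cells was amplified by SMART-seq V4, and Nextera XT was used for the libraries. Count values were deposited by the authors as whole-number reads per gene symbol without normalization. Listed in the submitters' processing notes, without roles, are featureCounts 1.4.6, STAR 2.5.2b, DESeq2, Trimmomatic 0.36.4, Picard 2.7.1.1 and the mm10 build. In addition, the authors' deposited table gives log2 fold changes and p-values, tdTom- over tdTom+; the signs were turned round here. Normalized columns were not used.

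The test was the robust quasi-likelihood F-test of edgeR 4.0.16 (R 4.3.3; two-sided, TMM scaling, no block) on genes kept by filterByExpr at a count minimum of 10. P-values of the 13142 genes kept were adjusted by Benjamini-Hochberg and read at 0.05. The filter can pass a gene through 1 group alone, and Hoxc10 and Meis3, among others, entered through the tdTom- group. Fold changes are tdTom+ over tdTom- on the log2 scale; the SE is the fold change over the square root of F. CPM use TMM-scaled totals. Exonic length is the union of all GENCODE M21 transcripts (GRCm38), so that genes with many annotated isoforms get a lower level per kb. Reads without molecular identifiers are not molecules, so that floors cover counting error only. Alternatives were RLE scaling, no filter, a minimum count of 50, DESeq2 1.42.0, a replicate block and leaving out each library. The test was checked on simulated data. No pair of libraries of a group agreed within sampling noise (mean chi-square per gene 8.18 to 19.7).

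The genes and lists were chosen with earlier results of these data known. Statistics are given for genes that passed and for up to 4 genes with the smallest p in each of the groups Hoxb, Hoxc, Hoxd, Hoxa, Pbx and Meis, or 3 in each list of other genes of the pathway. One gene that this rule names is not reported here. Hoxb2, Hoxb4, Hoxb6, Hoxd8 and Hoxd10 fall outside this rule and were described after their values were seen.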

Additional observations from a re-analysis of the deposited data

How the results depend on the processing

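No gene described here was called in either direction under any alternative run, which left 11 to 35 of them with an adjusted p. Over all genes, 101 were higher and 107 lower in tdTom+ cells, against 211 and 291 with DESeq2, and leaving out 1 library gave 37 to 97 higher and 25 to 92 lower. Leaving out 1 library turned the sign of the log2 fold change of 8 of the 21 tested genes, none of them called. They ran from -0.60 to 0.036 for Hoxd3, from -0.28 to 0.14 for Hoxd9, from -0.78 to 0.28 for Hoxa11, from -0.0041 to 0.30 for Pbx2, from -0.44 to 0.14 for Meis1, from -0.30 to 0.38 for Hoxb4, from -0.094 to 0.14 for Hoxd8 and from -0.95 to 0.61 for Hoxd10. With a replicate block Hoxb4 was at -0.036 and Hoxd10 at -0.28; the cause was not tested. The alternatives for Hoxb2, Hoxb4, Hoxb6, Hoxd8, Hoxd10 and the genes of other lists were added after seeing the data. Hoxc5 ran from -2.42 without tdTom+ replicate 2 to -0.05 without tdTom+ replicate 3.

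Same-numbered libraries deviated together at r = 0.112, 0.0908 and 0.166 over 13142 genes, and each library correlated best with its own number. Sex-linked genes also matched by number: Xist had 0, 8 and 1224 counts in tdTom+ libraries and 1, 4 and 571 in tdTom- libraries, and Ddx3y had 1521, 1334 and 12 in tdTom+ libraries and 1204, 1537 and 2 in tdTom- libraries. This is a hint at pairing from the data, not from the design. Not every r was above 0.1 and the labels do not tie numbers to embryos, so the block was kept as an alternative. A fit with a replicate block called 128 genes higher and 167 lower, Meis3 had an adjusted p of 0.195 and Mll1 one of 0.0647, and Crabp2 passed at 0.0450. Low counts limit what can be said of most Hoxc genes and of Hoxd11, and for Hoxd12 and Hoxd13 so does the spread between libraries.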
